A study of Mus musculus with 6 samples.

Results

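The SK and GIRK potassium channels are described here through the 8 genes that encode their subunits, taken by symbol from a table of 23079 genes: Kcnn1, Kcnn2, Kcnn3 and Kcnn4 for the SK family, and Kcnj3, Kcnj5, Kcnj6 and Kcnj9 for the GIRK family. All 8 were found in the table, and 7 of them passed the filter on low counts and were tested among 16766 genes. The libraries came from midbrain dopaminergic neurons of C57BL/6 mice of the Dat bacTRAP line, in which a tagged ribosomal protein is driven from the dopamine transporter gene, at 4 months of age. There were 3 control libraries, from neurons given AAV1 with a scrambled shRNA-EGFP construct, and 3 knockdown libraries, from neurons given AAV1 with a Satb1 shRNA-EGFP construct. The same vector and marker were thus present in both groups. The labels name 3 mice for the 6 libraries, do not tie a library to a mouse or to the substantia nigra or the ventral tegmental area, and name total RNA with no ribosome capture step. The p-values therefore measure only the spread between these libraries, which may be technical.

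SK channels are potassium channels of small conductance that open when calcium binds to the calmodulin held on each subunit. In dopamine neurons they carry the current that follows a spike and keep pacemaker firing regular, and SK3, the product of Kcnn3, is known as their main form. GIRK channels are inward rectifiers that open when G protein βγ subunits, freed by receptors coupled to inhibitory G proteins, bind them. They carry the inhibition that dopamine D2 autoreceptors and GABA-B receptors exert on these neurons, and GIRK2, the product of Kcnj6, is a widely used marker of nigral dopamine neurons.

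The deposited counts summed to between 147486754 and 170351145 per library, so that a single count was worth 0.00557 to 0.00672 CPM. CPM is the count relative to the total of its own library, with that total adjusted by the trimmed mean of M-values (TMM). Satb1 was lower in the knockdown libraries, at 24.4%, 48.9% and 18.0% of the control mean in libraries 1 to 3. The neurons carried their defining markers: Th was at 3507 ± 298 CPM and Slc6a3 at 4489 ± 193 CPM in controls (SD, n = 3). Between the groups, 7 of 10 dopamine neuron markers fell, with a summed level of 12436 to 13670 CPM per control library and 8270 to 10479 CPM per knockdown library, while 6 of 8 oligodendrocyte markers rose, from 368 to 430 CPM per control library to 576 to 650 CPM per knockdown library. Of 8 astrocyte markers 2 rose and 1 fell, of 8 microglial markers 1 rose and 1 fell, and of 6 endothelial markers 1 rose. Called markers made up 70% of the list for dopamine neurons, 75% for oligodendrocytes, 37.5% for astrocytes, 25% for microglia and 16.7% for endothelium. Of all tested genes 21.1% were called, 12.6% lower and 8.48% higher. The summed astrocyte level was 260 to 308 CPM per control library and 240.4 to 247 CPM per knockdown library, that of microglia 22.6 to 24.6 and 20.9 to 27.4 CPM, and that of endothelium 2.98 to 3.36 and 3.32 to 4.98 CPM. Median log2 fold changes were 0.57 for the astrocyte, 1.06 for the microglial and 0.81 for the endothelial markers. DESeq2 called 3, 3 and 1 of these markers higher and 1, 1 and 0 lower. The astrocyte markers went both ways: Aqp4 rose from 5.26 to 8.14 CPM and Slc1a2 fell from 245 to 177 CPM. Of the microglial markers P2ry12 fell from 18.9 to 13.8 CPM, while Cx3cr1, at 0.785 and 0.988 CPM, was not called; nor was the endothelial marker Cldn5, at 0.198 and 0.299 CPM. No marker of GABA neurons (3), glutamate neurons (2) or blood (1 in the table) was called by edgeR, DESeq2 or limma-voom, or had an unadjusted p under 0.05 in edgeR. In such bulk samples fewer cells of a type and less RNA per cell cannot be told apart, and the part that these cell types have in the results below was not tested.

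In each channel family the member with the highest level was lower in the knockdown, and no other member was called, in either direction, by edgeR, DESeq2 or limma-voom. Kcnn3 fell 2.15-fold and Kcnj6 fell 1.92-fold by edgeR's quasi-likelihood test, whereas Kcnn1, Kcnn2, Kcnj3, Kcnj5 and Kcnj9 did not pass it. The 2 members called lower are 28.6% of the 7 tested. For comparison, 12.6% of all tested genes were called lower, 8.48% higher and 21.1% in either direction. All knockdown libraries lay below all controls for the same 2 members, as they did for 20.8% of all tested genes, and the groups were apart in either direction for 38.7%. The median log2 fold change of the 7 tested members was -0.0019, that of all tested genes 0.01.

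**Figure D1:**
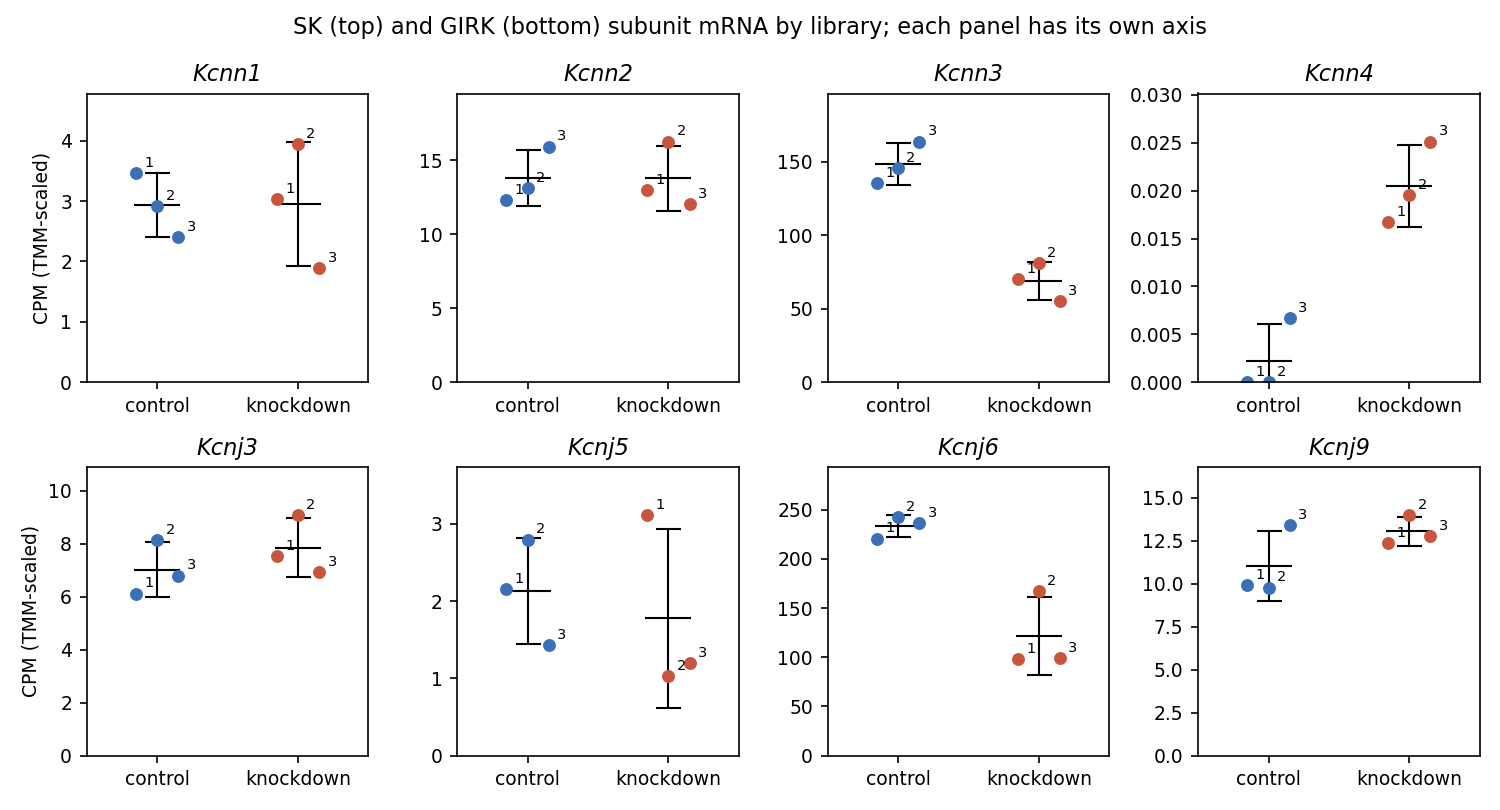
Level of each SK and GIRK subunit gene in CPM with TMM scaling (vertical axes, each starting at 0) in the 3 control and 3 knockdown libraries. Points are libraries with their replicate number, horizontal marks are means and bars are SD; only Kcnn3 and Kcnj6 among the tested genes have knockdown libraries that all lie below all controls.

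Kcnn3 stood at 136, 146 and 164 CPM in control libraries 1 to 3 and at 70.4, 81.3 and 55.3 CPM in knockdown libraries 1 to 3. The highest knockdown library was thus well below the lowest control, and knockdown library 3 was the lowest of all. The control mean was 148 ± 14.3 CPM and the knockdown mean 69.0 ± 13.1 CPM (SD, n = 3 each). On the log2 scale this is a change of -1.11 ± 0.13 (SE; 95% interval -1.40 to -0.82; adjusted p = 0.0004 by edgeR). Of the 16766 tested genes, 287 had a lower log2 fold change. Kcnn3, with gene identifier 140493, occupies chromosome 3 between 89520164 and 89675132 in GRCm38, also named mm10 (plus strand), and no other annotated gene shares its exons.

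Kcnn2 encodes SK2, the subunit found most widely in forebrain neurons. Control libraries held 12.3, 13.1 and 15.9 CPM of it and knockdown libraries 13.0, 16.3 and 12.1 CPM, so that the groups overlapped throughout. The log2 fold change was -0.0019 with a 95% interval from -0.34 to 0.34, which leaves out a fall of the size seen in Kcnn3. With total-count scaling it was 0.17. Kcnn1, which encodes SK1, had 3.47, 2.92 and 2.41 CPM in control libraries and 3.03, 3.94 and 1.88 CPM in knockdown libraries. The knockdown libraries lay both above and below the controls, and the interval of its log2 fold change, -0.65 to 0.67, was wide.

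Kcnn4 encodes the intermediate conductance channel of blood and immune cells, which is related to the SK family. It had 0, 0 and 1 counts in control libraries and 3, 3 and 4 counts in knockdown libraries. A limit of 3 counts corresponds to between 0.0167 and 0.0202 CPM in these libraries, so the gene was at or near the limit of detection everywhere; it did not pass the low-count filter and was not tested.

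Kcnj6 was measured at 221, 242 and 237 CPM in control libraries and at 98.2, 168 and 99.0 CPM in knockdown libraries. All knockdown libraries were below all controls, and knockdown library 2 stood apart from the other knockdown libraries. The control mean was 233 ± 11.3 CPM and the knockdown mean 122 ± 39.8 CPM. The log2 fold change was -0.94 ± 0.17 (SE; 95% interval -1.31 to -0.57; adjusted p = 0.00263 by edgeR). A lower log2 fold change was found for 453 of the tested genes. Knockdown library 2 also held the most Satb1, Th, Slc6a3 and Slc18a2 of the knockdown libraries, and a link between these levels was not tested. Kcnj6 was at 42.1%, 71.8% and 42.4% of its control mean in knockdown libraries 1 to 3, and Kcnn3 at 47.4%, 54.8% and 37.2%. Without knockdown library 2 the log2 fold change of Kcnj6 was -1.24 and that of Kcnn3 was also -1.24. Kcnj6, with gene identifier 16522, occupies chromosome 16 between 94748636 and 94997701 in GRCm38 (minus strand), and its exons overlap those of Gm41505 on the opposite strand, whose reads cannot be told apart if strand was not used in counting.

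Kcnj9 encodes GIRK3, a subunit that joins GIRK1 or GIRK2 and sends channels to endosomes. Control libraries had 9.92, 9.78 and 13.4 CPM and knockdown libraries 12.4, 14.0 and 12.8 CPM, the latter of which lay close together and within or just above the control range. The log2 fold change was 0.24 (95% interval -0.10 to 0.58; edgeR adjusted p = 0.315). Kcnj3 encodes GIRK1, which needs a partner subunit to reach the membrane. Its control libraries had 6.12, 8.15 and 6.80 CPM and its knockdown libraries 7.53, 9.08 and 6.94 CPM, a log2 fold change of 0.16 (95% interval -0.23 to 0.56) with overlapping groups. For both genes the interval excludes a decrease of the size measured for Kcnj6.

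Kcnj5 encodes GIRK4, best known from the atria of the heart. It varied most among the tested members: the counts were 351, 431 and 213 in control libraries and 559, 158 and 191 in knockdown libraries. Knockdown library 1 was the highest of all libraries and knockdown library 2 the lowest, and the coefficient of variation in the knockdown was 65.0%. The interval of its log2 fold change, -1.20 to 0.69, includes changes as large as that of Kcnj6 and changes in the other direction, so no difference was detectable at this spread. Exons of Kcnj3, Kcnj9, Kcnn1 and Kcnn2 overlap a gene on the opposite strand, as those of Kcnj6 do, whereas those of Kcnn4 and Kcnj5 do not.

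**Figure D2:**
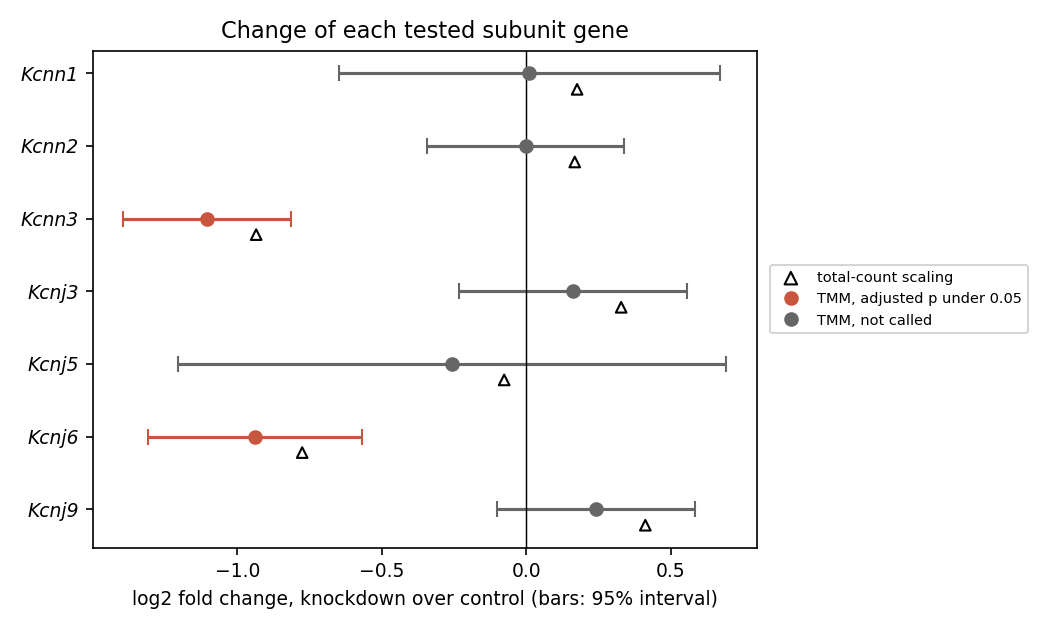
Log2 fold change of knockdown over control for the 7 tested subunit genes (horizontal axis), as circles with 95% intervals for TMM scaling and as triangles for total-count scaling. The intervals of Kcnn3 and Kcnj6 lie below 0 and those of the other 5 genes include 0.

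The regions before the start sites of these genes are shown because SATB1 is known to bind AT-rich DNA and because Kcnn3 and Kcnj6 were called lower while Kcnj9 was not called. RefSeq start sites on GRCm38.p6 gave a window of 250 bases for 7 of the 8 genes, all but Kcnn2. The windows of Kcnn3 (chr3:89519914-89520163, plus strand), Kcnj6 (chr16:94997697-94997946, minus strand) and Kcnj9 (chr1:172329323-172329572, minus strand) are printed from 5′ to 3′ on the strand of the gene, ending at the base before the start site, with the longest uninterrupted runs of A and T in capitals.
Kcnn3: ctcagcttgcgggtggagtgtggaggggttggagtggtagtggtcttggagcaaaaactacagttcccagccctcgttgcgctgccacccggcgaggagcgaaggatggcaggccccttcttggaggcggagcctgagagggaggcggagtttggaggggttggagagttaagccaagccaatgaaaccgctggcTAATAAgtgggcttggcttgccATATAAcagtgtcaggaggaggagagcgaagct
Kcnj6: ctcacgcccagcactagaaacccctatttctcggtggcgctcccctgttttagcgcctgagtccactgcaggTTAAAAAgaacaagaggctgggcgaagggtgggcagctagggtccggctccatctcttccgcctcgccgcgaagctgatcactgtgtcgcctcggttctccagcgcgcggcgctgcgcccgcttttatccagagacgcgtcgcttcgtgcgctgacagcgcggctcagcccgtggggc
Kcnj9: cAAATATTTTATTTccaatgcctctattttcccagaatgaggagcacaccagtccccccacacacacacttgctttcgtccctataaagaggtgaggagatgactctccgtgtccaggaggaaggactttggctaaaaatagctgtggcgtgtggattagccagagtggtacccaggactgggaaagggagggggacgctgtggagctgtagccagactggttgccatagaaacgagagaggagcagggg

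A and T made up 41.2% of the Kcnn3 window and 36.0% of the Kcnj6 window, against 48.0% for Kcnj9 and a median of 47.6% over 32841 such windows. In the windows not printed the share was 36.4% for Kcnn1 (39.6% at a second start site), 41.6% for Kcnj3 and 42.0% for Kcnj5. It was 41.2% for Kcnn4, which was not tested. The share of Kcnn3 thus lay within the range of the tested members that were not called and have a window. That of Kcnj6 lay just below the lowest of them, and that of Kcnj9 was the highest of all member windows. The share was lower than that of the Kcnn3 window in 30.0% of all windows and lower than that of the Kcnj6 window in 18.4%. The longest run of A and T had 6 bases in Kcnn3, where there are 2 such runs, and 7 bases in Kcnj6, while 66.9% and 52.3% of all windows hold a run at least that long. In Kcnj9 the longest run had 13 bases, the longest of all member windows, and 10.5% of windows hold as long a run. The longest runs of Kcnj3 and Kcnj5 had 7 bases, as in Kcnj6, that of Kcnn4 had 5 and those of Kcnn1 had 4 and 5. The letters TATAA, searched on both strands, were found once in the Kcnn3 window, starting 32 bases before the start site and inside the second run of capitals, and once in the Kcnj9 window, starting 168 bases before the start site. They were not in the Kcnj6 window printed, but a second start site listed for Kcnj6, with an A and T share of 34.4%, has them 128 bases before it. Of all windows 22.8% hold these letters. These windows describe sequence only, and binding of SATB1 was not measured in the data used here.

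Levels of different subunits were compared per length, as CPM per kb of annotated exon. In controls Kcnj6 was at 30.6 ± 1.48 CPM per kb and Kcnn3 at 14.2 ± 1.37 (SD, n = 3). The other members followed far below: Kcnj9 at 2.57 ± 0.480, Kcnn2 at 1.85 ± 0.254, Kcnj3 at 1.35 ± 0.199, Kcnn1 at 0.639 ± 0.116, Kcnj5 at 0.455 ± 0.146 and Kcnn4 at 0.000438 CPM per kb. Of the neighbours in this order, Kcnn1 and Kcnj5 were the pair whose control libraries overlapped, while those of Kcnj9 and Kcnn2 and of Kcnn2 and Kcnj3 lay close together. Among 16510 tested genes with a known exon length, Kcnj6 ranked 1824 and Kcnn3 ranked 3440 from the top in controls, and they ranked 3000 and 5801 in the knockdown. Exon length was taken as the union of all annotated exons of a gene; with the longest transcript instead, Kcnj6 was at 64.3, Kcnn3 at 17.9 and Kcnn2 at 3.75 CPM per kb, which put Kcnn2 above Kcnj9 at 2.86.

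The make-up of each family by mRNA differed between the groups. Kcnn3 accounted for 84.4%, 85.3% and 85.5% of SK mRNA per length in control libraries and for 73.7%, 71.9% and 72.3% in knockdown libraries. The Kcnn2 share was 10.7%, 10.8% and 11.6% in controls and 19.1%, 20.1% and 22.1% in the knockdown, at a level of Kcnn2 itself that was not called. Kcnj6 accounted for 88.0%, 87.7% and 86.7% of GIRK mRNA in controls and 72.0%, 80.8% and 74.0% in the knockdown. The Kcnj9 share was 7.04%, 6.30% and 8.76% in controls and 16.2%, 12.01% and 17.0% in the knockdown. In both families the main subunit remained the largest share in every library, and on this exon length the summed level went from 16.7 ± 1.51 to 9.09 ± 1.75 CPM per kb for SK and from 34.9 ± 1.81 to 20.9 ± 5.48 CPM per kb for GIRK. With the longest transcript as length the mean share of Kcnn3 was 80.0% in controls and 64.9% in the knockdown, and that of Kcnn2 16.7% and 29.4%. The mean share of Kcnj6 was then 93.2% and 85.9% and that of Kcnj9 4.15% and 9.07%, and the sums were 22.3 and 12.8 CPM per kb for SK and 69.0 and 38.8 CPM per kb for GIRK. These shares are of mRNA, and the protein make-up of the channels was not measured.

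**Figure D3:**
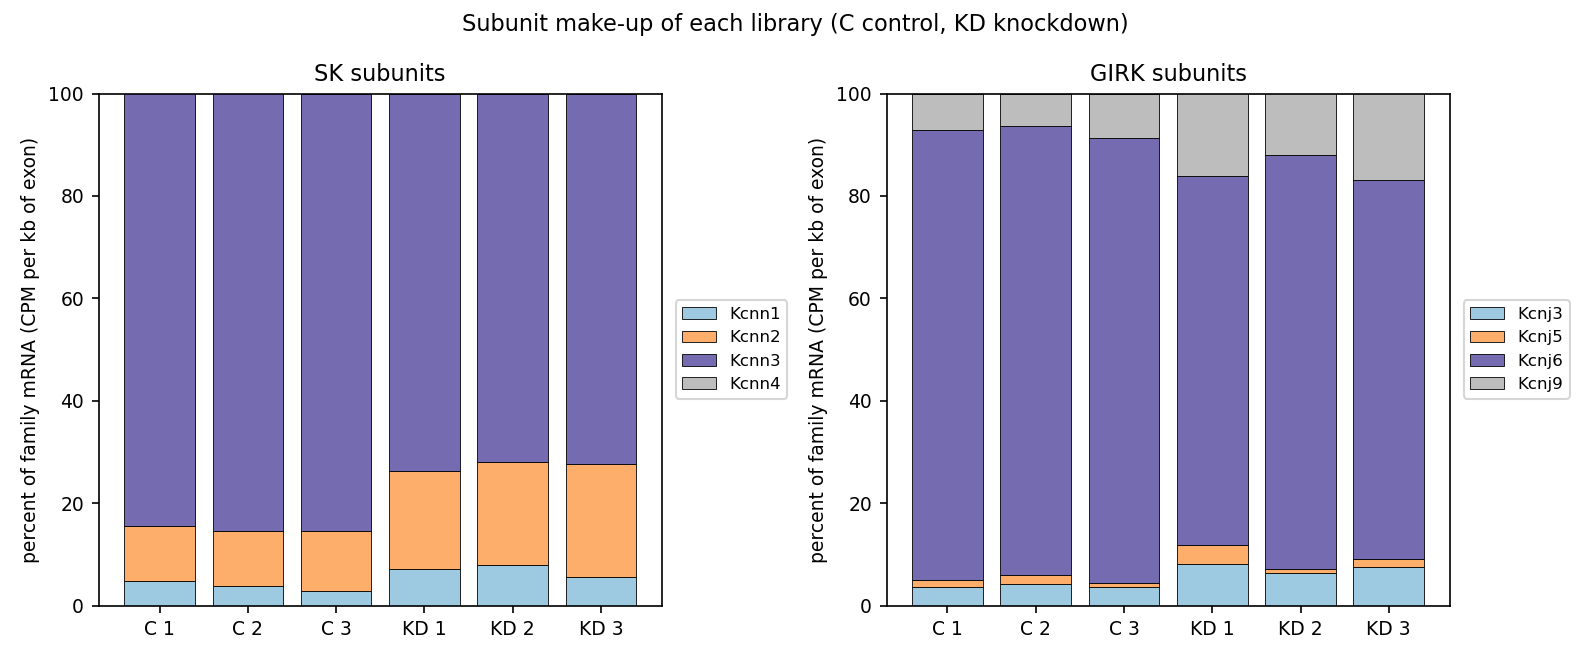
Share of each subunit gene in the summed SK mRNA (left) and GIRK mRNA (right) of each library, in percent of CPM per kb of exon. In the knockdown libraries Kcnn3 makes up 71.9% to 73.7% of SK mRNA and Kcnj6 72.0% to 80.8% of GIRK mRNA, below the control libraries in both cases.

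Ratios of counts within a library do not depend on how libraries are scaled, and 6 such ratios between subunits were compared. The count of Kcnn3 was 11.0, 11.1 and 10.3 times that of Kcnn2 in control libraries and 5.41, 5 and 4.58 times in knockdown libraries. The ratio of Kcnj6 to Kcnj9 was 22.2, 24.8 and 17.6 in controls and 7.94, 11.97 and 7.75 in the knockdown. The ratio of Kcnj6 to Kcnj3 was 36.1, 29.7 and 34.8 in controls and 13.0, 18.4 and 14.3 in the knockdown. These 3 ratios, and the inverse change in the ratio of Kcnn1 to Kcnn3, separated the groups without overlap, by 1.11, 1.24, 1.15 and 1.08 on the log2 scale. Each had an exact 2-sided permutation p = 0.1, the smallest that 3 against 3 libraries allow, and an adjusted p of 0.15 over the 6 ratios, so none could pass the threshold. The ratio of Kcnj9 to Kcnj3, neither of which was called, overlapped between the groups (difference 0.09 on the log2 scale, exact permutation p = 0.8). So did the ratio of Kcnj6, which was called, to Kcnj5, which was not (difference -0.60, exact permutation p = 0.4). The ratio of Kcnn3 to Kcnj6, which crosses the families, was 0.615, 0.601 and 0.693 in controls and 0.717, 0.486 and 0.558 in the knockdown, with knockdown libraries on both sides of the controls.

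The members were next set against genes that define dopamine neurons in the same library, since Slc6a3, Th and Slc18a2 also fell (log2 fold changes -0.72, -0.54 and -0.63). For each count of the dopamine transporter gene Slc6a3, Kcnj6 had 0.0517, 0.0524 and 0.0517 counts in control libraries and 0.0405, 0.0492 and 0.0419 in knockdown libraries. The controls were nearly identical, with an SD of 0.01 on the log2 scale, and knockdown library 2 came close to them without reaching them. For Kcnn3 the same ratio was 0.0318, 0.0315 and 0.0359 in controls and 0.0290, 0.0239 and 0.0234 in the knockdown, so that knockdown library 1 was the nearest to the controls. Relative to Slc6a3, Th and Slc18a2, Kcnn3 was lower in the knockdown by differences of -0.38, -0.57 and -0.48 on the log2 scale, and Kcnj6 by -0.25, -0.44 and -0.35. In all 6 ratios every knockdown library lay below every control, at an exact 2-sided permutation p = 0.1, the smallest possible, and an adjusted p of 0.1 over the 6. The shared denominators make these ratios dependent on each other, and the result depends on the gene chosen. With each of the 10 dopamine neuron markers as denominator, chosen after the data were seen and with no test, the groups were apart in the lower direction for 9 in Kcnn3 and for 7 in Kcnj6. Both members had themselves been called lower, with 287 (Kcnn3) and 453 (Kcnj6) of 16766 tested genes at a lower log2 fold change. A lower ratio to a gene that fell less therefore follows from these calls. How often other genes would be apart from these markers was not counted. The groups overlapped for Gch1, an enzyme gene for the cofactor of dopamine synthesis, which itself fell (-0.95): the difference was -0.15 for Kcnn3 and -0.02 for Kcnj6. For Kcnj6 they also overlapped relative to Slc10a4 (-0.20) and Pitx3 (-0.27). The largest differences were relative to Nr4a2, which was not called (0.25), at -1.36 for Kcnn3 and -1.23 for Kcnj6.

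**Figure D4:**
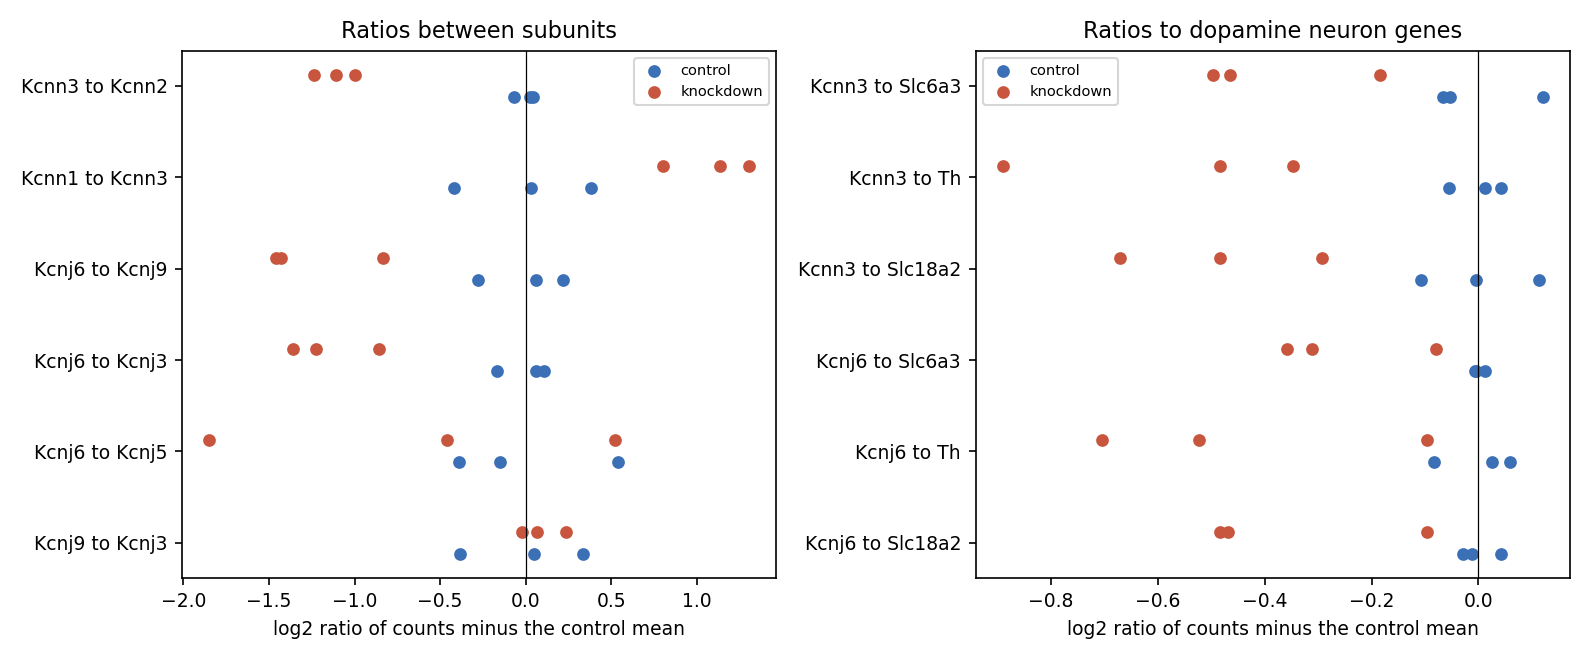
Log2 ratio of counts within each library minus the control mean of that ratio (horizontal axis), for 6 ratios between subunits (left) and 6 ratios of Kcnn3 or Kcnj6 to dopamine neuron genes (right); points are libraries. The ratios to these 3 dopamine neuron genes are lower in every knockdown library, by less than the ratios of Kcnn3 to Kcnn2 or of Kcnj6 to Kcnj9.

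The genes whose pattern was most like that of the called members were found by Pearson correlation of log2 CPM over the 6 libraries, among 9471 genes whose mean was 10 CPM or more; the values follow the group difference and are a description. For Kcnj6 the closest gene was Slc6a3 (r = 0.998), followed by Syt17, Sssca1, Mlst8 and Syt3 (r from 0.996 to 0.997). For Kcnn3 the closest were Neurl4 (r = 0.999), Celf5, Pip4k2b, Pfn1 and 4930506M07Rik (r from 0.996 to 0.998). Satb1 itself was in place 48 for Kcnj6 (r = 0.985) and in place 447 for Kcnn3 (r = 0.965), and Kcnj6 and Kcnn3 correlated at 0.947. The libraries share their depth and scaling across all these genes.

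Of 25 tested genes of receptors linked to GIRK channels, 3 rose, 2 fell and 20 did not pass, with a median log2 fold change of 0.08. The share called was 20%, close to the 21.1% of all tested genes. Drd2, the D2 autoreceptor gene, had 280, 243 and 285 CPM in control libraries and 262, 285 and 231 CPM in knockdown libraries, with overlapping groups (log2 fold change -0.05, edgeR adjusted p = 0.762). Gabbr2, a subunit of the GABA-B receptor, fell from 96.2 ± 4.64 to 74.5 ± 8.44 CPM (-0.37, edgeR adjusted p = 0.0257), a call lost without any 1 library other than knockdown library 2 (adjusted p between 0.055 and 0.0969) and with total-count scaling (0.187). Its partner Gabbr1 was at 434 CPM (control mean) and 446 CPM (knockdown mean) and was not called. Adora1, the adenosine A1 receptor gene, rose from 28.0 ± 2.43 to 49.1 ± 7.10 CPM (0.81), and Htr1a, for the serotonin 1A receptor, rose from 3.28 to 5.96 CPM (0.86), a call lost without control library 1 or knockdown library 1 (adjusted p = 0.0571 and 0.0603). The list includes the neurotensin receptors, which act mainly through another G protein class: Ntsr1 fell from 166 ± 11.2 to 103 ± 12.7 CPM (-0.69) and Ntsr2 rose from 3.22 to 7.09 CPM (1.14; adjusted p = 0.0564 without knockdown library 1). Without knockdown library 1 a single receptor gene was called higher.

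Several genes of the G proteins that carry the receptor signal to GIRK channels were lower. Of 18 tested, 6 fell, 1 rose and 11 did not pass, and the median log2 fold change was -0.22 (-0.05 under total-count scaling). Called genes made up 38.9% of this list, against 21.1% of all tested genes (12.6% lower and 8.48% higher). Gnao1, the main Go α subunit of brain, fell from 1141 ± 79.6 to 795 ± 57.2 CPM (-0.52), and Gnai1 from 410.2 ± 19.1 to 263 ± 17.9 CPM (-0.64). Gnaz (-0.59) also fell. Among the βγ subunits, which bind the channel itself, Gnb2 fell from 97.0 ± 3.00 to 52.0 ± 7.70 CPM (-0.90) and Gng3 fell from 1138 ± 47.9 to 814 ± 91.1 CPM (-0.48), while Gng12 rose from 10.7 to 21.0 CPM (0.98). Gnb1, the most abundant β gene by CPM, was at 1406 CPM (control mean) and 1239 CPM (knockdown mean) and was not called.

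Genes that regulate GIRK channels or their G protein cycle were called more often in the lower direction, 9 against 2 of 25 tested, with a median of 0.06. In either direction 44% were called, against 21.1% of all tested genes (12.6% lower and 8.48% higher). Rgs6 and Rgs7 encode proteins that speed the shut-off of inhibitory G proteins. Rgs7 had 171, 149.5 and 164 CPM in control libraries and 71.5, 103 and 74.1 CPM in knockdown libraries, a log2 fold change of -0.96 with no overlap. Rgs6 fell by 0.88 on the log2 scale, from 51.8 ± 3.36 to 28.1 ± 5.89 CPM. As in Kcnj6, Th, Slc6a3 and Slc18a2, knockdown library 2 was the highest knockdown library for both. Rgs2 (-0.69), the β-arrestin gene Arrb2 (-0.69) and the phosphatase catalytic subunit gene Ppp1ca (-1.06) fell, while Rgs4 rose (0.67). Snx27, a sorting protein that binds GIRK2 and GIRK3 tails, was the other gene that rose (0.31, edgeR adjusted p = 0.0448), and it was picked out after its value was seen. Without any 1 library other than control library 2, Rgs4 was the single regulator called higher. Under total-count scaling 5 regulators were higher and 8 lower.

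Genes of the calcium sensor of SK channels and of the enzymes that act on it were called in the lower direction. Calm2, a calmodulin gene, fell from 3570 ± 151 to 2839 ± 26.8 CPM (-0.33) and Calm3, another, fell from 1096 ± 54.9 to 705 ± 76.8 CPM (-0.64). The call for Calm2 was lost with total-count scaling (adjusted p = 0.117), and because Calm2 and Calm3 encode the same protein, reads could have been split between near-identical genes. CK2 and PP2A set the calcium sensitivity of the channel through its calmodulin: Csnk2a1 (-0.56) and Ppp2ca (-0.51) fell. In all, 5 of the 10 tested genes fell and 0 rose by edgeR (1 was higher at an unadjusted p under 0.05, 1 by DESeq2 and 0 by limma-voom), with a median of -0.32, or -0.15 with total-count scaling. Those called made up 50% of the list, against 21.1% of all tested genes (12.6% lower and 8.48% higher).

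Among 28 genes that supply or remove the calcium that SK channels sense, 5 fell, 1 rose and 22 did not pass, with a median of -0.17, or 0.00 with total-count scaling. The share called was 21.4%, against 21.1% of all tested genes. Cacna1a, the P/Q-type channel, fell from 74.8 ± 1.57 to 41.3 ± 7.84 CPM (-0.86), and the β subunit genes Cacnb3 (-0.60) and Cacnb4 (-0.42) also fell. Atp2a3, a calcium pump of the endoplasmic reticulum, fell by 0.83 on the log2 scale and the exchanger gene Slc8a1 fell by 0.36, while Itpr2, an inositol trisphosphate receptor, rose from 2.11 to 5.02 CPM (1.25). The call for Cacnb4 was lost without knockdown library 1 (adjusted p = 0.0549), and that for Slc8a1 without control library 2 or 3 or knockdown library 1 or 2 (between 0.0649 and 0.132). Both were lost with total-count scaling (adjusted p = 0.0643 and 0.18), which gave 4 higher and 3 lower genes here. Without knockdown library 1, 3 were lower, and without control library 2, 2 were higher.

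Related potassium channels outside the SK and GIRK families did not share a direction. Of 11 tested genes of other inward rectifiers and their sulfonylurea receptor partners, 2 rose and 0 fell by edgeR, with 0 lower at an unadjusted p under 0.05, by DESeq2 or by limma-voom. Kcnj10, the Kir4.1 channel of astrocytes and oligodendrocytes, rose from 17.5 ± 3.13 to 28.0 ± 3.54 CPM (0.68, edgeR adjusted p = 0.00792). In the same libraries 6 of 8 oligodendrocyte markers rose, and of 8 astrocyte markers 2 rose and 1 fell, while 8.48% of all tested genes were called higher. The summed astrocyte level was 260 to 308 CPM per control library and 240.4 to 247 CPM per knockdown library. A link between Kcnj10 and these markers was not tested. Kcnj14 (1.43, edgeR adjusted p = 0.0493) was called only with all libraries or without knockdown library 1 among the fits that left 1 out. Kcnj11, the pore of the ATP-sensitive channel, was at 9.40 and 10.7 CPM and was not called. Of 7 other tested channels activated by calcium or sodium, 2 fell: Kcnma1, the BK channel, from 70.3 ± 7.01 to 44.0 ± 7.90 CPM (-0.68, edgeR adjusted p = 0.00383), and Kcnt1 (-0.44, edgeR adjusted p = 0.0396), whose call was lost without any 1 of the 6 libraries (adjusted p between 0.0579 and 0.118). Against the 21.1% of all tested genes, the share called was 38.9% for the G protein list, 44% for the GIRK regulators, 50% for the SK sensor list, 18.2% for the other inward rectifiers and 28.6% for these other channels. Whether Kcnn3 or Kcnj6 differed in response from these genes was not tested.

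**Figure D5:**
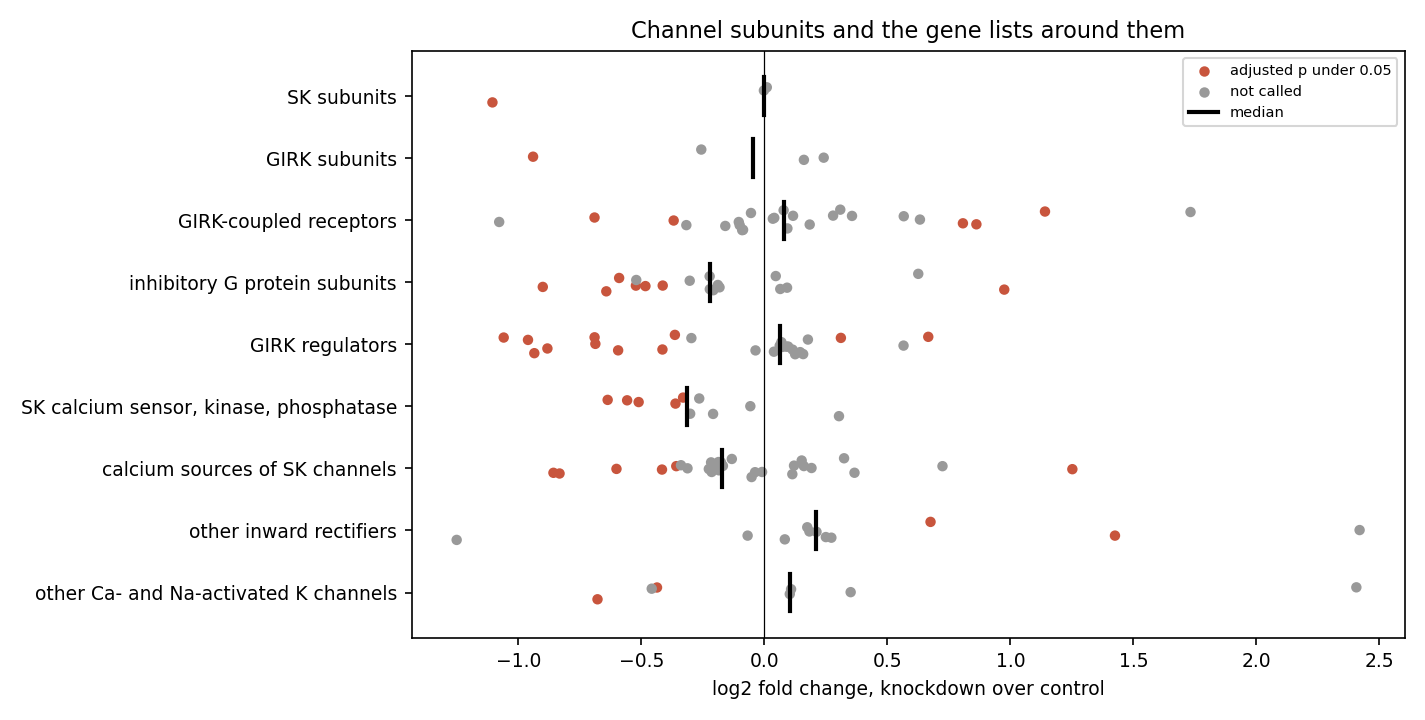
Log2 fold change of knockdown over control (horizontal axis) for each tested gene of the SK and GIRK families and of the 7 lists around them; red points have an adjusted p under 0.05 and black bars are list medians. The medians lie between -0.32 and 0.21, and Kcnn3 and Kcnj6 are the single red points of their families.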

How the data were processed

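RNA sequencing libraries of 3 control and 3 Satb1 knockdown samples were grouped and numbered by the sample titles. A single table of whole-number read counts was deposited by the authors, its columns being libraries and its rows genes. The submitters' processing notes list TopHat2 2.0.8 and mm10; which tool and annotation were used for counting, and whether strand was used, is not given in the sources used here. Reads shared by overlapping genes or by near-identical genes may therefore have been assigned in ways that change single values.

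Deposited counts were tested in R 4.3.3 with the edgeR (4.0.16) quasi-likelihood method, with library factors from TMM, the filterByExpr filter at a minimum count of 10 and a minimum total of 15, and Benjamini-Hochberg adjustment over all 16766 tested genes at a threshold of 0.05, 2-sided. Standard errors and 95% intervals came from the F statistic. DESeq2 1.42.0 and limma-voom (limma 3.58.1) were alternatives. The edgeR test was checked on simulated counts with known changes. Correlations of log2 CPM used a prior count of 2. Exon lengths and overlaps came from GENCODE M21, which is on GRCm38 and matched 22630 of the 23079 genes, and start site windows came from RefSeq on GRCm38.p6.

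The members, gene lists and tests were chosen with earlier results of these data known. Named in the text were Satb1, the 8 members, of each list at most the 6 called genes with the smallest p (or else 2 genes), Drd2, Gabbr2, Th, Slc6a3, Slc18a2 and the 5 genes most like Kcnn3 and Kcnj6 each. Other list genes with values, namely Gabbr1, Gnb1, Snx27, Kcnj11, Aqp4, Slc1a2, P2ry12, Cx3cr1, Cldn5, Gch1, Slc10a4, Pitx3 and Nr4a2, were chosen after their values were seen. An item that the rule would name is not reported here. Replicate libraries differed by a chi-square per gene of 58.5 to 156, far above sampling noise, so none was deposited as 2 samples.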

Additional observations from a re-analysis of the deposited data

How the results depend on the processing

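Kcnn3 and Kcnj6 were called lower in all 14 alternatives, at log2 fold changes from -1.24 to -0.94 for Kcnn3 (adjusted p at most 0.00364) and from -1.24 to -0.78 for Kcnj6 (adjusted p at most 0.0173); no other tested member was called in any of them. With 1 library left out the ranges were -1.24 to -0.95 for Kcnn3, -1.24 to -0.80 for Kcnj6, 0.05 to 0.28 for Kcnj3 and 0.16 to 0.40 for Kcnj9. The sign changed for 3 uncalled members. Kcnn1 was at -0.046 by limma-voom, -0.037 with the replicate block, and between -0.25 and 0.27 with 1 library left out (-0.12 without control replicate 3). Kcnn2 was at 0.012 with relative log expression scaling, 0.010 by DESeq2, 0.17 with total-count scaling, 0.044 when the filter was a mean of 1 CPM, and between -0.14 and 0.11 with 1 library left out (0.11 without control replicate 3, 0.05 without knockdown replicate 1 and 0.10 without knockdown replicate 3). Kcnj5 was between -0.93 (without knockdown replicate 1) and 0.025 (without knockdown replicate 2). The cause of these changes was not tested.

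With total-count scaling, which moved the median of all tested genes from 0.01 to 0.18, 2770 genes were called higher and 972 lower, against 1421 and 2115. Leaving out 1 library gave 804 to 1356 higher (804 without knockdown replicate 1 and 910 without control replicate 2) and 1132 to 2054 lower (1132 and 1322 without the same libraries). Of the lists, total-count scaling gave 1 lower receptor gene, 2 higher G protein genes, 5 higher GIRK regulators, 1 higher and 3 lower genes of the SK calcium sensor list, 4 higher and 3 lower calcium source genes, and 1 lower gene among the other calcium- and sodium-activated channels. With 1 library left out these lists gave, higher and lower, 1 to 3 and 1 to 2 receptors, 1 and 6 to 7 G protein genes, 1 to 2 and 7 to 9 regulators, 0 to 1 and 5 to 6 sensor genes, 1 to 2 and 3 to 5 calcium genes, 1 to 2 and 0 other inward rectifiers and 0 and 1 other calcium- and sodium-activated channels. The single higher sensor gene appeared without knockdown replicate 2, and 1 regulator was higher without any single library other than control replicate 2.

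Differences of log2 ratios kept their direction with 1 library left out, from -1.17 to -1.05 for Kcnn3 to Kcnn2, 0.87 to 1.27 for Kcnn1 to Kcnn3, -1.44 to -1.13 for Kcnj6 to Kcnj9 and -1.29 to -1.04 for Kcnj6 to Kcnj3. The exceptions were Kcnj6 to Kcnj5 (-1.15 to 0.03) and Kcnj9 to Kcnj3 (-0.10 to 0.26). Relative to Slc6a3, Th and Slc18a2 the ranges were -0.48 to -0.32, -0.69 to -0.42 and -0.58 to -0.39 for Kcnn3 and -0.33 to -0.19, -0.61 to -0.31 and -0.48 to -0.28 for Kcnj6. A pseudocount of 1 moved no difference by more than the spread between libraries. With the longest transcript as length, chosen after the data were seen, control levels were 3.75 CPM per kb for Kcnn2, 17.9 for Kcnn3 and 64.3 for Kcnj6. Deviations of libraries with the same number correlated weakly (0.06, 0.01 and 0.11). With 3 libraries per group this cannot decide whether the numbers pair them. The replicate block called 1924 genes higher and 2789 lower, against 1421 and 2115 without it. It gave -1.12 for Kcnn3 and -0.99 for Kcnj6, where the SE was 0.12 with the block and 0.17 without it. Counts limit the values for Kcnn4, at most 4 per library.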
